A study of Homo sapiens with 6 samples.

Results

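Laminins are the large cross-shaped glycoproteins of basement membranes, the thin matrix sheets on which epithelial cells sit. Each laminin joins 1 alpha, 1 beta and 1 gamma chain, and the alpha chain carries the main contact with cell surface receptors. Nidogens are short rods that bind the gamma1 chain and link the laminin sheet to the collagen IV network. Trimers with alpha3 and beta3 anchor epithelial cells through hemidesmosomes, while trimers with alpha5 and gamma1 are widespread in adult epithelial basement membranes. The genes described here are 8 laminin chain genes (LAMA1, LAMA3, LAMA4, LAMA5, LAMB1, LAMB2, LAMB3 and LAMC1) and NID1, 9 of the 23278 rows of the expression table. They were taken by name. A further 4 laminin and nidogen genes, LAMA2, LAMB4, LAMC3 and NID2, are given beside them.

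The samples came from FT282, an immortalised human cell line derived from the secretory epithelium of the fallopian tube and used here as a clonal derivative. All cells carried a stably expressed vector, either empty (EV) or encoding BORIS (gene CTCFL), a germ-line paralog of the chromatin insulator protein CTCF. CTCF was precipitated from EV cells and from BORIS cells, BORIS was precipitated from BORIS cells, and RNA was sequenced from both. With 1 library in each group, the values carry no replicate error and no difference between groups was tested here. Nothing in the sources used here says whether a library stands for 1 culture or several.

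RNA levels are FPKM, fragment counts scaled to transcript length and to the mapped fragments of the library, so that levels can be set side by side between genes. CTCFL RNA was near 0 with the empty vector (0.00532 FPKM) and reached 53.3 FPKM with BORIS. The secretory line markers PAX8 and KRT7 were present at 71.3 and 1055 FPKM in the EV library, whereas EPCAM, CDH1 and OVGP1 were under 1 FPKM in both libraries. Of 4 smooth muscle markers, MYH11 and DES were under 1 FPKM in both, while ACTA2 and CNN1 brought the summed level of the list from 722 FPKM in EV cells to 306 FPKM in BORIS cells. The 5 fibroblast markers summed to 127 and 99.0 FPKM, with DCN and LUM under 1 FPKM in both. The 4 ciliated, 4 endothelial and 4 leukocyte markers summed to 2.48, 36.4 and 1.52 FPKM in EV cells and to 1.54, 31.4 and 2.29 FPKM in BORIS cells, with FOXJ1 and CD3E listed at 0 in both. The endothelial sum was mostly CDH5, at 35.2 and 30.2 FPKM, while PECAM1 and CLDN5 were under 1 FPKM in both. The part of these shifts in the results below was not tested, and in bulk RNA fewer cells of a type and less RNA per cell cannot be told apart.

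RNA for the beta1 and gamma1 chains was far more abundant than alpha chain RNA in both libraries. In what follows, a pair of FPKM values gives the EV library first and the BORIS library second, and gene spans are those of the deposited table on hg19. LAMB1 (chr7:107564245-107643804), encoding the beta1 chain, had the highest level of the 13 genes, at 126 and 116 FPKM. LAMC1 (chr1:182992594-183114727), encoding gamma1, followed at 111 and 109 FPKM. The differences between the libraries in both genes were small beside their levels. LAMB2 (chr3:49158546-49170599), encoding beta2, stood at 62.6 and 59.8 FPKM. LAMB3 (chr1:209788217-209825820), encoding beta3, stood at 23.7 and 20.0 FPKM. These 4 genes held ranks 1 to 4 in the same order in both libraries. With 1 library each, it cannot be said which neighbours in this order differ beyond their spread.

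The alpha chains and the nidogens made up the lower part of the order. LAMA5 (chr20:60884120-60942368) was at 15.4 and 10.1 FPKM, rank 5 with the empty vector and rank 7 with BORIS. LAMA3 (chr18:21269561-21535029) was at 9.76 and 13.8 FPKM, rank 7 and then rank 6. NID2, the other nidogen, was at 11.5 and 18.3 FPKM, rank 6 and then rank 5. These 3 genes were the ones of ranks 5 to 7 in either library, and their order differed between the libraries. NID1 (chr1:236139131-236228481) held rank 8 in both, at 1.36 and 1.65 FPKM. The remaining 5 genes stayed under 1 FPKM in both libraries. Among them LAMA4 (chr6:112429133-112575828) was at 0.252 and 0.833 FPKM, LAMA1 (chr18:6941742-7117813), an alpha chain of the early embryo, at 0.0962 and 0.178 FPKM, and LAMA2, the main alpha chain of muscle, at 0.253 and 0.243 FPKM. LAMC3 stood at 0.00294 and 0.0144 FPKM, and LAMB4 was listed at 0 with the empty vector and at 0.0104 FPKM with BORIS.

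**Figure D1:**
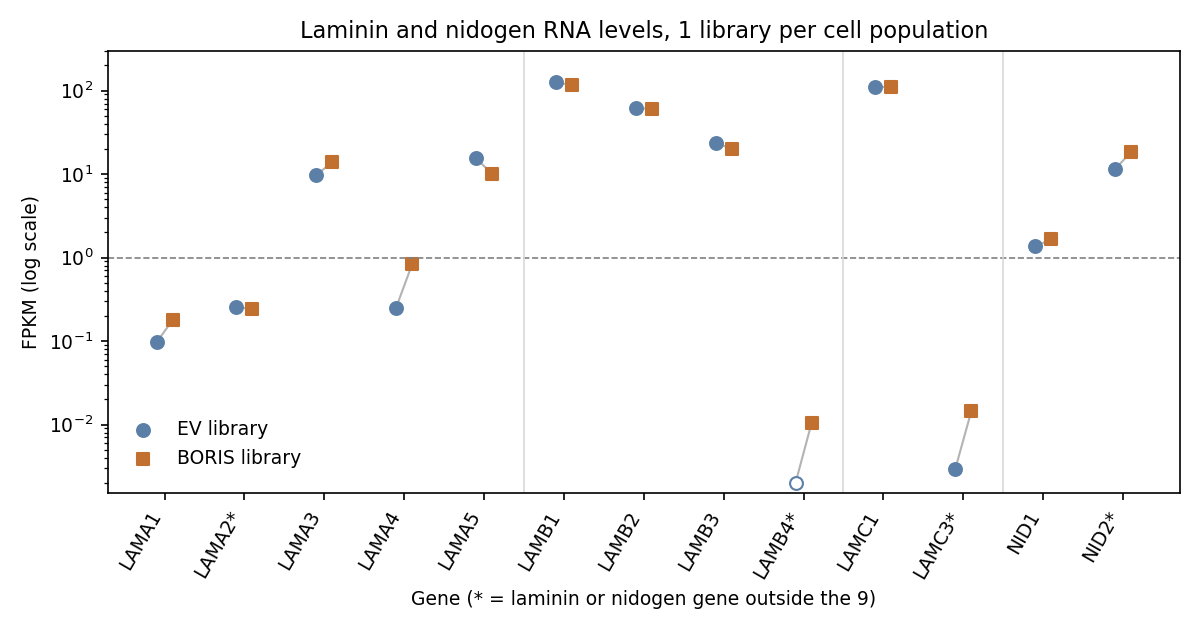
FPKM (log scale) of 13 laminin and nidogen genes in the EV library (blue circles) and the BORIS library (orange squares), with 1 library each; the dashed line marks 1 FPKM and the open circle at the bottom marks the EV value of LAMB4, listed at 0. LAMB1 and LAMC1 lie at or above 109 FPKM in both libraries, and the lines of LAMA3 and LAMA5 slope in opposite directions.

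The summed level of the alpha chains was almost the same in both libraries, but their make-up was not. The 5 alpha chain genes summed to 25.8 and 25.2 FPKM. LAMA5 held 59.8% of that sum in EV cells and 40.1% in BORIS cells. LAMA3 held 37.9% and 55.0%, so the leading alpha chain RNA was LAMA5 in EV cells and LAMA3 in BORIS cells. The ratio of LAMA3 to LAMA5 was 0.633 in EV cells and 1.37 in BORIS cells. LAMA4, an alpha chain of vessels and mesenchyme, held 0.978% and 3.31%. As the table gives 1 value per gene, the long and short LAMA3 transcripts, which begin at different starts, were not told apart.

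By contrast, the beta class kept its make-up. The 4 beta chain genes summed to 212 and 196 FPKM, with LAMB1 at 59.3% and 59.2% of the sum, LAMB2 at 29.5% and 30.5%, and LAMB3 at 11.2% and 10.2%. The beta sum was 8.23 times the alpha sum in EV cells and 7.78 times in BORIS cells. The 2 nidogen genes summed to 12.8 and 20.0 FPKM, of which NID2 held 89.4% and 91.7%.

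**Figure D2:**
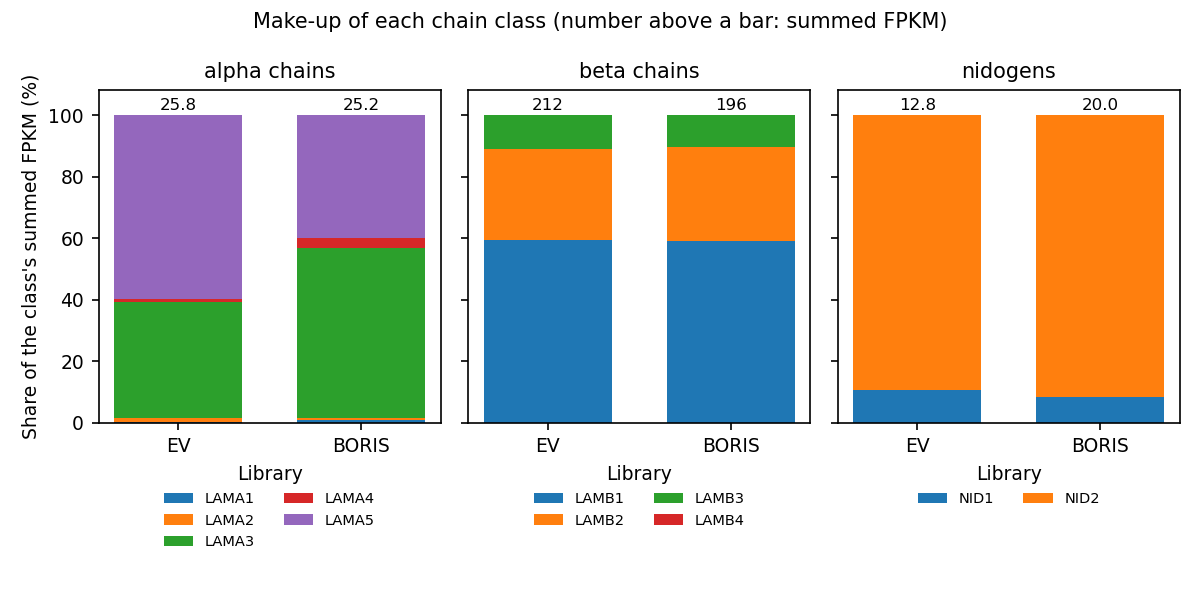
Share of each gene in the summed FPKM of its class (vertical axis, %), for alpha chains, beta chains and nidogens in the EV and the BORIS library; the number above a bar is the summed FPKM. The LAMA5 part falls from 59.8% to 40.1% of the alpha class while the beta bars look alike in both libraries.

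Differences between the libraries were expressed as log2((BORIS + 1)/(EV + 1)), with 1 FPKM added to each value, and a gene was counted when this ratio was 0.5 or more in size and 1 or both of its values reached 1 FPKM. Of the 7 laminin and nidogen genes among the 9 that reached 1 FPKM, 0 were higher and 1, LAMA5, was lower by this rule. Among the 12496 genes with 1 FPKM, 3.23% were higher and 2.33% lower. Over the 7, the median log2 ratio was -0.07, with 2 above 0 and 5 below 0, and over all 12496 it was -0.00040. With 1 gene past the limit, the count gives nothing particular to these genes.

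LAMA5 had a log2 ratio of -0.57, and 1.94% of the genes with 1 FPKM had a lower one. LAMA3 had 0.46, just under the limit, and 3.58% of genes had a higher one. LAMB3, at -0.23, had 9.29% of genes below it, and NID1, at 0.17, had 13.2% above it. LAMB1, LAMB2 and LAMC1, at -0.12, -0.07 and -0.03, lay among the bulk of the genes. LAMA4 had a log2 ratio of 0.55, but both values were under 1 FPKM, so it entered no count; LAMA1 was likewise left out, with 0.10. Outside the 9, NID2 was past the limit at 0.63.

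**Figure D3:**
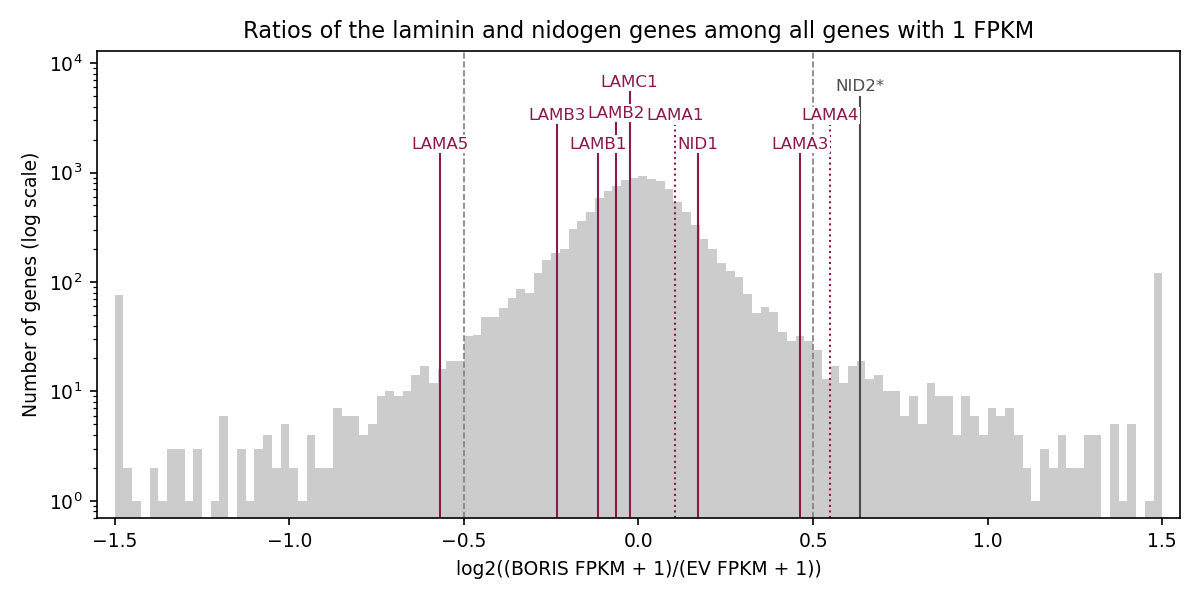
Number of genes (log scale) by log2((BORIS FPKM + 1)/(EV FPKM + 1)) for the 12496 genes with 1 FPKM in either library (grey; values beyond 1.5 in size are pooled in the outermost bars), with vertical lines at the laminin and nidogen genes (red, dotted under 1 FPKM; dark grey with an asterisk for NID2) and dashed lines at the limits of 0.5. LAMA5 at -0.57 and LAMA3 at 0.46 lie in opposite tails.

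The authors' deposited table carries its own mark of significance, computed from the same 2 libraries. CTCFL, the gene carried by the BORIS vector, went unmarked there, at 0.00532 and 53.3 FPKM with a q-value of 0.484. A gene without the mark is therefore not shown to be unchanged. Of the 8 genes among the 9 that the authors' deposited table tested, it marked LAMA3 and LAMA4 as higher in BORIS cells and LAMA5 as lower. Over the 13297 rows tested in the authors' deposited table, 5.81% were marked higher and 6.64% lower. The q-value in the authors' deposited table was 0.000817 for LAMA3 and for LAMA5, and 0.0456 for LAMA4. The value of 0.000817 is the lowest in that table and is shared by many genes, COL4A1, HSPG2, BCAM and TLL1 among them. It therefore does not rank LAMA3 and LAMA5 above those genes. The 5 tested but unmarked genes had q-values in the authors' deposited table of 0.0555 for NID1, 0.0710 for LAMB3, 0.556 for LAMB1, 0.811 for LAMB2 and 0.950 for LAMC1. NID2 was marked as higher in the authors' deposited table, with a q-value of 0.000817, and LAMA1 was not tested there. LAMA4 was thus marked there although it was under 1 FPKM in both libraries.

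The wider basement membrane machinery was read from lists drawn up by known function, but chosen with earlier results of these data known. Of 23 other basement membrane components, 15 reached 1 FPKM, and 0 were higher and 2 lower by the rule of size. Over all genes with 1 FPKM, 3.23% were higher and 2.33% lower. Their median log2 ratio was -0.15, with 13 of the 15 below 0, against a median of -0.00040 over all genes with 1 FPKM. Marks in the authors' deposited table were 8 lower and 2 higher out of the 23. Of all rows tested there, 6.64% were marked lower and 5.81% higher. The 23 were not limited to tested rows and include genes at or near 0 FPKM, such as SMOC2. The collagen IV chain genes COL4A1 and COL4A2, which build the network that nidogen joins to laminin, were both lower with BORIS, COL4A1 at 652 and 496 FPKM and COL4A2 at 382 and 311 FPKM. COL4A4 was lowest in ratio, at 2.14 and 0.638 FPKM. HSPG2, the heparan sulfate proteoglycan perlecan, was the other gene past the limit, at 24.0 and 16.6 FPKM. Also marked as lower in the authors' deposited table were COL4A1, COL4A2, COL4A3, COL18A1, FBLN1 and TINAGL1. FRAS1, which sits at the epithelial basement membrane, was highest at 7.04 and 9.04 FPKM, and the laminin-related netrin NTN1 stood at 27.6 and 33.3 FPKM; these were the 2 marked as higher in the authors' deposited table.

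The laminin receptors went both ways. Of 13 receptors and partners, 12 reached 1 FPKM, with a median log2 ratio of -0.03. By the rule of size 3 were higher and 1 lower, against 3.23% and 2.33% of all genes with 1 FPKM. The higher ones were the syndecan SDC1, at 3.56 and 7.67 FPKM, and the integrin subunits ITGA1, at 4.06 and 6.78 FPKM, and ITGA2, at 12.3 and 18.0 FPKM. The lower one was BCAM, a receptor that binds the laminin alpha5 chain, at 11.98 and 6.30 FPKM. BCAM and LAMA5 were thus both lower in BORIS cells. By the authors' deposited table, higher marks went to 5 of the 13, with ITGA6 and SDC4 joining those 3. Lower marks went to 4, namely BCAM, SDC2, DAG1 and ITGA7. Of all rows tested there, 5.81% were marked higher and 6.64% lower. ITGB1, the beta subunit shared by most laminin-binding integrins, stood at 348 and 359 FPKM, and its partner ITGA3 at 266 and 240 FPKM.

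Among the 6 hemidesmosome genes, 5 reached 1 FPKM, 0 were past the limit and the median log2 ratio was -0.11. ITGA6 was highest in ratio at 3.20 and 4.49 FPKM, and ITGB4, its partner in hemidesmosomes, was lowest at 65.1 and 55.1 FPKM. ITGA6 was the 1 gene of the 6 with a mark in the authors' deposited table. Of 12 genes for the sugar chain by which dystroglycan binds laminin, 11 reached 1 FPKM, 0 were past the limit and the median was -0.03. B3GALNT2 was highest in ratio at 10.7 and 12.8 FPKM and GTDC2 lowest at 4.47 and 3.92 FPKM. ISPD, at 1.08 and 1.36 FPKM, was the 1 gene with a mark in the authors' deposited table. Of the 5 proteases listed for laminin processing, all reached 1 FPKM, with a median of 0.07. TLL1, a relative of the processing protease BMP1, was the 1 past the limit and the 1 marked as lower in the authors' deposited table, at 7.86 and 3.38 FPKM. MMP14, a membrane-bound matrix metalloprotease, was highest in ratio at 104 and 115 FPKM. The shares over all genes given above stand beside the counts of these lists as well.

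CTCF and BORIS peaks were then read over the span of each of the 9 genes and 10 kb on either side (hg19). There the authors' lists held 24 peaks for CTCF with the empty vector, 27 for CTCF with BORIS, and 19 for BORIS itself. Of the 24 CTCF peaks in EV cells, 95.8% (95% Wilson interval 79.8 to 99.3, counting error only) overlapped a CTCF peak of BORIS cells by 1 bp or more, against 94.2% over the whole list. Of the 27 in BORIS cells, 85.2% (67.5 to 94.1) overlapped a CTCF peak of EV cells, against 90.8% over the whole list. Of the 19 BORIS peaks, 52.6% (31.7 to 72.7) overlapped a CTCF peak of BORIS cells, against 65.6% over the whole list. Each interval includes the share of the whole list.

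The CTCF peaks called in 1 cell population alone were few. The 1 called in EV cells alone lay in LAMA3 at chr18:21481045-21481236, with a score of 57, at percentile 3.60 of its list. Of the 4 called in BORIS cells alone, 2 lay at LAMC1, at chr1:182989025-182989196 and chr1:182992615-182992822. The others lay beside LAMA3 at chr18:21543412-21543818 and in LAMB1 at chr7:107641870-107642114. The highest score among these 4 was 198, at LAMA3, which stood at percentile 17.8 of the list. The scores carry no stated unit and are the authors' own, so they are read only within a list.

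Peak numbers are not scaled to span length, and LAMA3 has the longest span of the 9, at 265 kb. LAMA3 held 7 CTCF peaks in either cell population and 2 BORIS peaks. One CTCF site was at its outer start, at chr18:21269257-21269494 in EV cells and chr18:21269198-21269522 in BORIS cells, and BORIS itself was called over both at chr18:21268921-21269977. LAMA5 had 5 CTCF peaks in either population and 4 BORIS peaks, most of them in the 10 kb on either side. Inside its span lay only the CTCF site at chr20:60927836-60928081 in EV cells and chr20:60927819-60928070 in BORIS cells. None of the BORIS peaks lay within 5 kb of the span. The BORIS peak at chr20:60877614-60877953 had a score of 1300 (percentile 97.3), the highest of the 19, and lay 6.34 kb beyond the stop end of LAMA5, next to ADRM1. ADRM1, a proteasome subunit gene, stood at 87.5 and 90.1 FPKM, and was named after its values were seen.

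**Figure D4:**
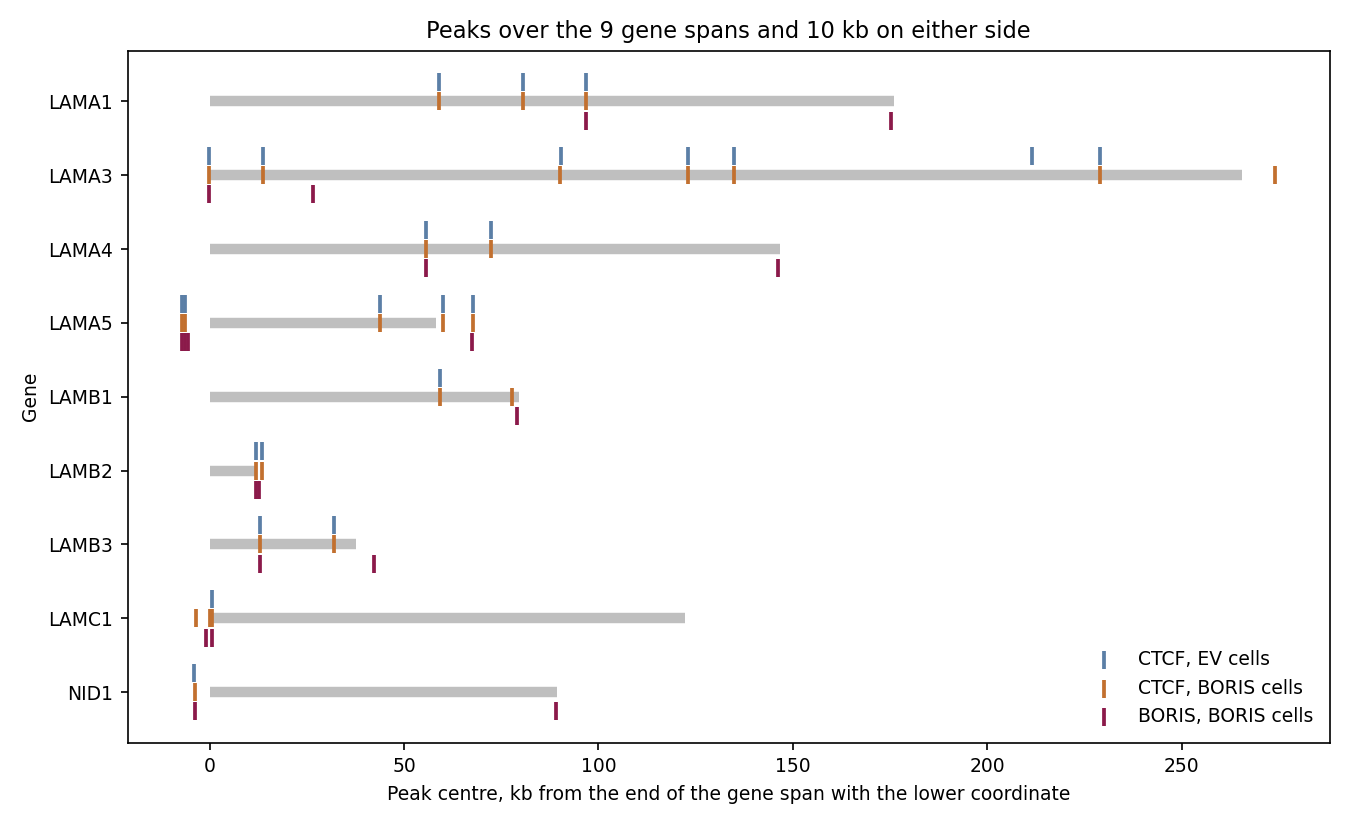
Centres of CTCF peaks in EV cells (blue), CTCF peaks in BORIS cells (orange) and BORIS peaks in BORIS cells (red) over the 9 genes, in kb from the end of the span with the lower coordinate; grey bars are gene spans. The blue and orange marks coincide at 23 of the 24 places called in EV cells. LAMA3 and LAMA5 carry the most marks, those of LAMA5 mostly beside its span.

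BORIS peaks stood near the ends of most of these genes. A peak centre lay within 1 kb of an end in 7 of the 9 (77.8%, Wilson interval 45.3 to 93.7), against 40.3% of the 22891 rows on the chromosomes of the peak lists. Active genes had such peaks more often, and the fairer comparison is within them. Of the 7 genes with 1 FPKM, 5 had one (71.4%, interval 35.9 to 91.8), against 57.9% of the 12363 genes with 1 FPKM, so the share was near the background. CTCF peaks lay as close in 3 of the 9 in EV cells and in the same 3 in BORIS cells (LAMA3, LAMB2 and LAMC1), against 24.4% and 27.2% of all rows. These 3 all reached 1 FPKM, and no CTCF share within the genes with 1 FPKM is given here. The 7 with a BORIS peak were LAMA1, LAMA3, LAMA4, LAMB1, LAMB2, LAMC1 and NID1, and the 2 without were LAMA5 and LAMB3. Those 2 also had the lowest log2 ratios of the 9, at -0.57 and -0.23. A link between peaks and ratios was not tested, and the set depends on the distance, as 4 of the 9 had a peak within 500 bp. Over all genes with 1 FPKM the median log2 ratio was 0.017 with such a peak and -0.024 without. Within 5 kb of an end LAMB3 had a BORIS peak as well, 4.74 kb beyond its start, which left LAMA5 as the 1 without. No share over all genes within 500 bp or within 5 kb is given here, so those counts have no background.

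Gene strand, read by symbol from RefSeq (GRCh38.p14), told the start from the stop for 8 of the 9, all but LAMA1. The start here is the outer end of the deposited span, and LAMA3 is counted by that end, not by its start inside the gene. At these 8, a BORIS peak lay within 1 kb of the start in 6 (75.0%, interval 40.9 to 92.9) and of the stop in 0. The background was 38.3% of the 13755 rows with a strand and 54.3% of the 8556 of them with 1 FPKM at the start, and 7.40% of the 13755 rows at the stop. The 6 include LAMA4, under 1 FPKM in both libraries. Among the genes with 1 FPKM the share was 5 of 7 (71.4%, interval 35.9 to 91.8), and that interval includes the 54.3%. At LAMA1 the peak, chr18:7116920-7117240, lay 733 bp inside the end of the span with the higher coordinate. In LAMC1 and LAMB2 a second BORIS peak stood beyond the start, so the 7 genes held 9 such peaks.

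The peaks at these ends differed in whether CTCF was called with BORIS. At LAMA3, LAMB2 and LAMC1 a BORIS peak covered the start and overlapped CTCF in both cell populations. The second BORIS peaks of LAMB2 (chr3:49171056-49171261) and LAMC1 (chr1:182991407-182991832) lay beyond the start and overlapped no CTCF peak of either. The LAMC1 peak at chr1:182992562-182993630 spanned 1069 bp around 1 CTCF peak of EV cells and 2 CTCF peaks of BORIS cells. The LAMB2 peak at chr3:49170305-49170742 had its centre 76 bp inside the gene. At LAMA1, LAMA4, LAMB1 and NID1 the BORIS peak overlapped no CTCF peak of either population and lay wholly inside the span. These were at chr6:112574744-112575747 for LAMA4, chr7:107643060-107643651 for LAMB1 and chr1:236227965-236228387 for NID1. The LAMB1 peak had a score of 88, at percentile 3.12 of the BORIS list. The LAMA3 peak had a score of 637, at percentile 85.7. The 9 peaks near an end had a median score of 170 and the other 10 a median of 264, and 3 of the former and 7 of the latter overlapped CTCF in BORIS cells. No such split by place is given here for the whole BORIS list. These scores and counts thus have no background and are not read as particular to these genes.

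**Figure D5:**
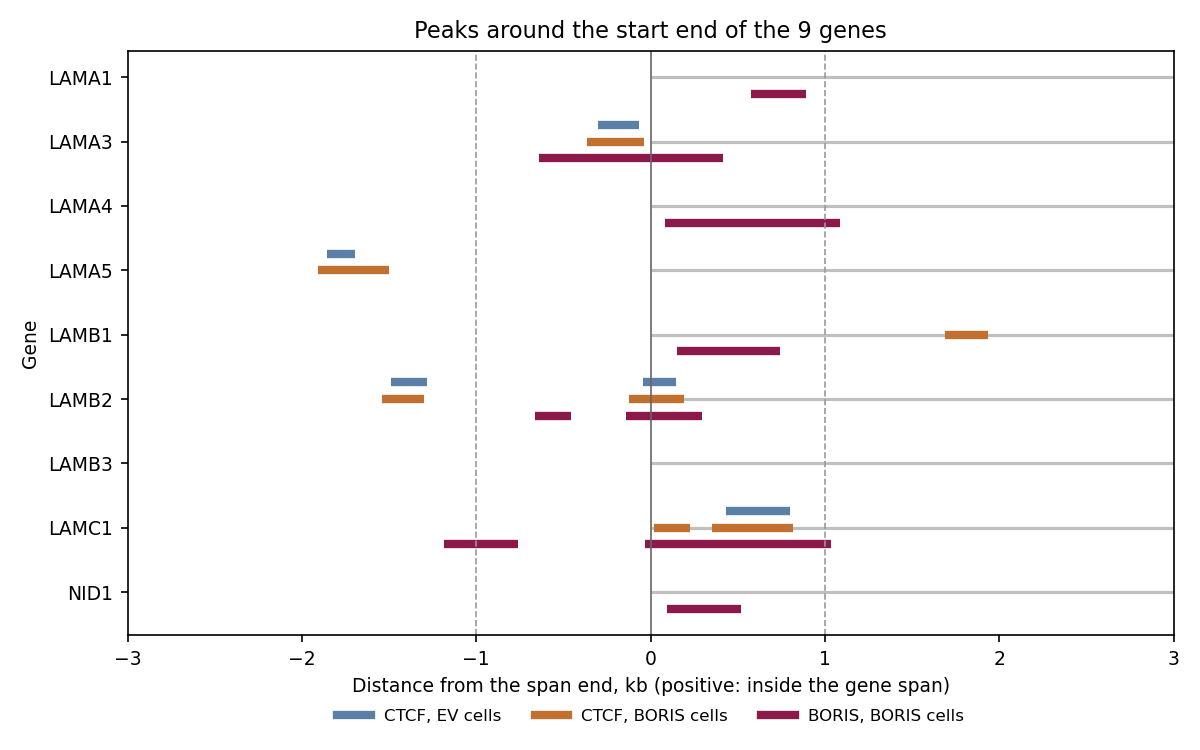
Peak intervals around the start of each gene, in kb from the span end (positive values lie inside the gene; for LAMA1, the end with the higher coordinate), for CTCF in EV cells (blue), CTCF in BORIS cells (orange) and BORIS in BORIS cells (red); thin grey lines are gene spans and dashed lines mark 1 kb. LAMA3, LAMB2 and LAMC1 show all 3 colours within 1 kb, LAMA1, LAMA4, LAMB1 and NID1 show red alone there, and LAMA5 and LAMB3 show none.

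The DNA before the starts is shown for 5 genes with a BORIS peak within 1 kb of the start and for LAMA5, which had none there. The peaks of LAMA4, LAMB1 and NID1 lay inside the gene, on the other side of the start from these bases. Each sequence is the 250 bases before the start that RefSeq gives (GRCh38.p14), read 5′ to 3′ on the strand of the gene. Peaks are on hg19 and no position was carried between the builds, so these windows are not aligned base by base to the peaks. Capitals mark each match to AGNNGGC, letters from the core of the CTCF motif, on either strand (its reverse complement is GCCNNCT), and neighbouring matches may overlap. Such a match occurs in 57.5% of the 35114 RefSeq windows of the same length.
LAMC1, chr1:183023170-183023419, plus strand: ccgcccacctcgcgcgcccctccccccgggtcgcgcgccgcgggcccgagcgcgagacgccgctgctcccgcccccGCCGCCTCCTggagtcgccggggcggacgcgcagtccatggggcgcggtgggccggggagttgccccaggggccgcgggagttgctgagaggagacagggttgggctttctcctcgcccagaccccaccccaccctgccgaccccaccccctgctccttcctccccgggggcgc
LAMB1, chr7:108003162-108003411, minus strand: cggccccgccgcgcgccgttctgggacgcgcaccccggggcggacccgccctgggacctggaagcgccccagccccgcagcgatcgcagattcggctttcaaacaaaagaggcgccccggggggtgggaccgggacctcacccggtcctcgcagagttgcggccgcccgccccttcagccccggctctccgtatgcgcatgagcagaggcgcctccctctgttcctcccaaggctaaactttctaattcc
LAMB2, chr3:49133051-49133300, minus strand: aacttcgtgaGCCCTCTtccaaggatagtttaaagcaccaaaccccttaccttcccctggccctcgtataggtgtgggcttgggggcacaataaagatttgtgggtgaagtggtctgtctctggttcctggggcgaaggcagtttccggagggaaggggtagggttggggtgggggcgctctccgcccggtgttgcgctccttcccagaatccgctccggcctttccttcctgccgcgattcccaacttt
LAMA4, chr6:112254568-112254817, minus strand: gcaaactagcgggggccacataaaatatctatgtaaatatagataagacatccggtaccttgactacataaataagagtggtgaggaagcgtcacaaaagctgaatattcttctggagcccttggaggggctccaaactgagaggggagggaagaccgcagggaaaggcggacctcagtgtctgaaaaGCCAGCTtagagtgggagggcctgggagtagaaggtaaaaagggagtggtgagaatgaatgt
NID1, chr1:236065091-236065340, minus strand: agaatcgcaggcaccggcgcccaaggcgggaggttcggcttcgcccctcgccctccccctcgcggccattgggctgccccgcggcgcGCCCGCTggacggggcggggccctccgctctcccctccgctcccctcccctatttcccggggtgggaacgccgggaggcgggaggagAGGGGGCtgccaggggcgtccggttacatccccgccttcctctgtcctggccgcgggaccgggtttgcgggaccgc
LAMA5, chr20:62367313-62367562, minus strand: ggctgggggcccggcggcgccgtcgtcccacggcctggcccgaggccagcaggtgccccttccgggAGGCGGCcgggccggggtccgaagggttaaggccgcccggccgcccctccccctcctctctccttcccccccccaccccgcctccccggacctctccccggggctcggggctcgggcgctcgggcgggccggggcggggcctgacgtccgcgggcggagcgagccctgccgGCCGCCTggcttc

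LAMC1 and NID1 held 2 matches each, LAMB2 and LAMA4 held 1 each, and LAMB1 held 0. LAMA5 held 2. With peaks and windows not aligned, these counts are not read against the peaks. Of the 7 genes of the 9 with a window at their outer start, 5 held a match, against 57.5% of all windows. Their base composition differed widely. LAMA5, LAMC1, NID1 and LAMB1 were rich in G and C, at 82.8%, 79.6%, 76.4% and 70.4%, with 32, 32, 30 and 28 CpG pairs, against medians of 58.0% and 11 over all windows. LAMB2 had 58.4% and 12 CpG pairs, and LAMA4 had 48.4% and 5. LAMB3, not shown, had 2 windows at its outer start, with 64.0% and 60.0% and 0 matches in either. The RefSeq window of LAMA3 belongs to a start inside the gene and not to the outer start with the BORIS peak, and is not shown.

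Some values may share reads with other features. The microRNA rows MIR4260 and MIR4758 are listed with the same span as LAMB3 and LAMA5, at 152 and 0 FPKM and at 0 in both libraries, and LAMB2P1, a copy of LAMB2, lies 19.7 kb away from it. LAMB2P1 stood at 0.115 and 0.139 FPKM, far under LAMB2. The sources used here do not state whether reads were counted by strand, so reads antisense to LAMA4 or LAMA5, which have antisense genes in RefSeq, cannot be told apart from their own.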

How the data were processed

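RNA values are the FPKM that the authors deposited for 1 EV and 1 BORIS library. Bowtie, TopHat2 and Cufflinks 2.0.0 and the build hg19 are named per the submitters' processing notes, with no role given. RNA libraries were made with 1 of 2 kits per the labels' protocols, and the kit of each library is not given in the sources used here, so kit and group may be confounded. The authors' deposited p-values and q-values come from 1 library per group. Each peak list is deposited with start, end, a score per peak without a stated unit and a position; its caller, threshold and use of the input are not given in the sources used here. Peak starts were taken as 0-based and printed 1-based.

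Log2 ratios used a pseudocount of 1 FPKM, which understates differences of low genes. Peaks were matched by 1 bp of overlap and by centre within 1 kb of a span end. The members, lists and limits were chosen with earlier results of these data known; in the lists, genes were named by highest and lowest ratio and by the authors' mark. With 2 libraries a pattern is a single ratio, so no genes of like pattern are named. The ratio, overlap and distance steps were checked on simulated data (Python 3.11.15, pandas 2.3.3, SciPy 1.17.1). Absolute depth is unknown. Among 324 genes under 0.01 FPKM in EV and 0.03 in BORIS cells, the log2 ratio without pseudocount fell most often between -0.35 and -0.30 (33 genes), as if 1 fragment were worth less in the BORIS column than in the EV column. Sequences are from RefSeq, which had windows for 8 of the 9 genes. The input was not used here, and 1 item is not reported here.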

Additional observations from a re-analysis of the deposited data

How the results depend on the processing

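No paired analysis was possible because each group holds 1 library. The median log2 ratio lay between -0.09 and -0.03 under another pseudocount, centring and other minimum levels, and the shares of peaks under 50% reciprocal overlap stayed inside their intervals. The count of genes higher in BORIS cells went from 0 to 1 with no minimum FPKM (LAMA4) and to 1 with a size of 0.25 (LAMA3). The count of lower genes went from 1 to 0 with a size of 1. The 7 genes with a BORIS peak near an end became 4 within 500 bp and 3 with the higher-scoring part of the list. That part left 9, 10 and 9 of the 24, 27 and 19 peaks, and the spans alone held 11 BORIS peaks. With the higher-scoring part of each list, 100% of the CTCF peaks of EV cells were also called in BORIS cells. The LAMA5 shares were tried without genes under 1 FPKM, an alternative chosen after seeing the data, and were 61.2% and 42.2%. A ratio was taken as moved beyond 0.1 log2 units. With a pseudocount of 0.1 FPKM the log2 ratios of LAMA1 and LAMA4, both under 1 FPKM, became 0.50 and 1.41, so their size rests on that choice.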

Other observations

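Of the laminin and nidogen genes beside the 9, NID2 had a pair of BORIS peaks near its start, at chr14:52534837-52535795 and chr14:52535921-52536736, with no CTCF peak in either. LAMC3, at 0.00294 and 0.0144 FPKM, had a CTCF peak called in BORIS cells alone over the lower end of its span, at chr9:133884280-133884725, without BORIS. LAMB4, 20.2 kb from LAMB1, had 4 CTCF peaks in either population and 0 BORIS peaks. LAMA2, the longest of the 13 genes at 633 kb, had 6 CTCF peaks in EV cells, 7 in BORIS cells and 1 BORIS peak.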
